A study of Mus musculus with 2 samples.

Results

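The genes described here are the heat shock proteins and cytosolic chaperones, 41 genes chosen by symbol out of the 32285 genes counted, and all 41 were found. They are the Hsp70, Hsp110, Hsp40, small Hsp and Hsp90 families with their cochaperones, the mitochondrial chaperones, 7 subunits of the cytosolic chaperonin, and 2 heat shock factors. Inducible Hsp70, Hsp40 and small Hsp genes were read against chaperonin and constitutive genes. The cells were mononuclear cells of the quadriceps of wild-type (WT) C57 BL/6J mice. Both groups had received an intramuscular injection of barium chloride (BaCl2, used to injure muscle; 100 µl at 1.2% w/v) and differed by the time of collection, 2 h or 9 h. There was 1 droplet library per time (10x 3' chemistry), made from cryo-preserved cells with a target of 5000 cells. Neither the age of the mice, nor how many contributed to each library, nor the way the tissue was dissociated is stated in the labels. No uninjured library was analysed here, so both times are after injury.

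Chaperones bind unfolded proteins and help them fold or pass them to degradation. Hsp70 proteins work with Hsp40 (DnaJ) partners, which deliver the client, and with nucleotide exchange factors such as Hsp110 and the BAG proteins, which release it; small Hsp proteins hold unfolding clients without using ATP. When unfolded protein builds up, heat shock factor 1 (HSF1) is freed from chaperones, forms trimers and binds heat shock elements in the promoters of inducible chaperone genes, whose mRNA then rises and falls quickly. The cytosolic chaperonin (TRiC, also called CCT) is a double ring that folds actin, tubulin and other new proteins, and its genes are active in cells at rest as well.

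A heat shock element is built of inverted GAA units, so the promoters of the inducible genes are shown first. RefSeq promoter windows (GRCm38.p6, 250 bases before to 50 bases after the start) were given for 33 of the 41 genes. They were searched for 2 adjoining units, GAANNTTC or TTCNNGAA, each of which is its own reverse complement, so that both strands are read at once. The letters were present in 15.1% of all 32851 windows, and 17.0% of 27025 genes had them in any window. Among the members, 18 of 33 (54.5%) had a match: 8 of 9 inducible genes, 2 of 6 chaperonin genes, 2 of 2 mitochondrial chaperone genes and 4 of 14 constitutive genes. Dnajb1 was the inducible gene with an entry and no match. A match is a run of letters and not a shown binding site. Hspa1a and Hspa1b, the paired genes of inducible Hsp70 on chromosome 17, are shown because their levels moved together. They went the same way in the compared cell classes except dendritic-like cells, where both were nearly equal at the 2 times. The 250 bases before their starts differ at 3 bases (98.8% identical). Their genes lie at chr17:34969190-34972156 and chr17:34956436-34959238 (mm10, minus strand). Capitals mark the GAA-unit match, and no annotated exon overlaps either stretch.
Hspa1a, chr17:34972157-34972406, minus strand: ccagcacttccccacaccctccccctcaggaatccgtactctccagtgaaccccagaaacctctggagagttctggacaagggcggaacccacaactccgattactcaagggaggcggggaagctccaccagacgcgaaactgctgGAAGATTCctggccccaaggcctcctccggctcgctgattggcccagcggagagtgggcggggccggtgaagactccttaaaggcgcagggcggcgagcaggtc
Hspa1b, chr17:34959239-34959488, minus strand: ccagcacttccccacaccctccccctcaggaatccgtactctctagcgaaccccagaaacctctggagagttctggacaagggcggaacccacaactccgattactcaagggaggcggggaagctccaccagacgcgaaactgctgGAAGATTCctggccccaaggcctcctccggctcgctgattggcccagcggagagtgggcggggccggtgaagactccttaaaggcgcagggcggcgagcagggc

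Shorter stretches, of at most 30 bases, show the match in genes whose levels went in opposite directions. A run of 3 or more adjoining units (GAANNTTC followed by NNGAA, or TTCNNGAA followed by NNTTC) was present in 0.603% of all windows and in 5 members, Hsph1, Dnajb6, Chordc1, Hspd1 and Hspe1. The last pair, which encode the mitochondrial chaperonin and its lid, lie head to head and share 1 run of 4 units, read from opposite strands. Chordc1, a cochaperone of Hsp90, has 5 units, and Hsph1 has 3, which lie after its start. The chaperonin genes Cct2 and Cct5 have 2 units. In the annotation the stretches of Hsph1 and Chordc1 overlap an exon of their own gene, that shared by Hspd1 and Hspe1 an exon of Hspd1, and that of Cct5 an exon of its neighbour Fam173b; the others overlap no exon. Capitals again mark the units.
Hspb1, chr5:135887791-135887820, plus strand: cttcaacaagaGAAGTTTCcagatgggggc
Dnaja4, chr9:54699458-54699487, plus strand: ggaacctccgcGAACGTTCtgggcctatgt
Hsph1, chr5:149636287-149636308, minus strand: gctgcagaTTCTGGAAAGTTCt
Hspd1, chr1:55088053-55088082, minus strand: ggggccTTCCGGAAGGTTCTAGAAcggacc
Hspe1, chr1:55088053-55088082, plus strand: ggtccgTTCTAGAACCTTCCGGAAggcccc
Chordc1, chr9:18292260-18292288, plus strand: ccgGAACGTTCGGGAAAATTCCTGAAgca
Cct2, chr10:117063399-117063428, minus strand: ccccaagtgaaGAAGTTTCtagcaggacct
Cct5, chr15:31601862-31601891, minus strand: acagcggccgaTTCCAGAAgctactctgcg

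The 2 h library kept 4900 cells with 27598413 UMIs (unique molecules; median 4519 per cell), and the 9 h library 8147 cells with 35127600 UMIs (median 2327); 12 cell barcodes occurred in both. Clusters were formed without the members, a list of other chaperone genes and the immediate early genes. They were named from markers, as "like" a cell type because the names rest on markers alone. Levels are CPM, the UMIs of a gene per 1000000 UMIs of its class. Intervals are 95% and cover counting error only, without the spread between cells or animals. With 1 library per time no difference between the times has a replicate check and none was tested. A gene with at least 100 UMIs over both libraries in a class counts as measured, and it is called higher or lower when its log2 ratio of 9 h over 2 h, with a pseudocount of 10 CPM, is past 2-fold. Fold values in the text are plain ratios of CPM. Genes that rose or fell are called genes. Fibro-adipogenic progenitors (FAPs) are the mesenchymal cells between muscle fibres. Of the FAP-like cells, 2024 were from 2 h, mostly in clusters 4 (1464 cells) and 0 (545, led by Pi16), and 1759 from 9 h, mostly in clusters 3 (1501, led by Cxcl5) and 15 (218). All 15 FAP markers were detected at both times, with a summed level of 66720 CPM at 2 h and 22485 CPM at 9 h. A cluster of 622 cells, 620 of them from 9 h, carried FAP markers but was left unnamed and is given apart. Its summed FAP marker level at 9 h was 42488 CPM, above that of the FAP-like class. The 9 h FAP-like class held 2372 cells at Leiden resolution 0.5, 2354 at resolution 2 and 2240 with a mitochondrial limit of 10%. It held 1786 when the members were kept for clustering. The FAP-like values below leave the unnamed cluster out.

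In FAP-like cells the inducible chaperone genes were lower and the chaperonin genes higher at 9 h than at 2 h. Of the 10 inducible genes, 9 fell and none rose, with a median log2 ratio of -1.62. All 7 chaperonin genes rose, with a median of 1.53. Over all 10242 genes measured in these cells the median was 0.00, and 10.8% were called lower and 8.47% higher. Together the inducible genes took 12613 CPM at 2 h and 4250 CPM at 9 h, 2.97-fold lower, while the chaperonin genes went from 707 to 2185 CPM, a ratio of 3.09 (3.03 to 3.16). Counting all members, 40 of 41 were measured, 12 fell and 9 rose; Hspb6, a small Hsp of muscle, had 23 and 4 UMIs and was not measured.

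**Figure D1:**
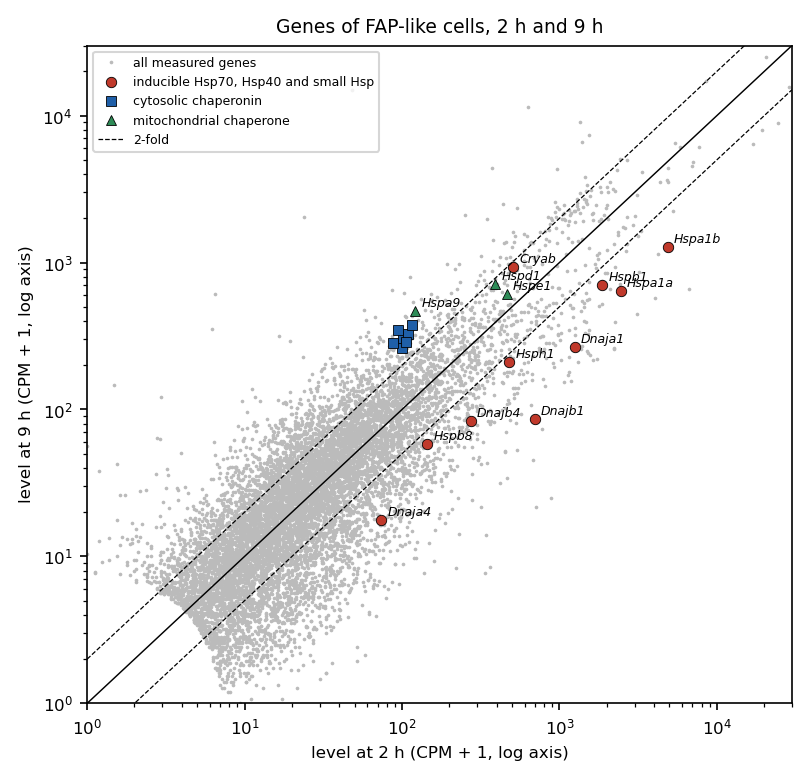
Level of each measured gene in FAP-like cells at 2 h (x axis, CPM + 1, log scale) and 9 h (y axis, same scale), 1 point per gene, 1 library per time; the solid line is equality and the dashed lines are 2-fold. Of the 10 inducible genes (circles), 9 lie below the lower dashed line and Cryab above equality, while all 7 chaperonin genes (squares) lie above the upper dashed line.

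Among the inducible genes of FAP-like cells, the Hsp70 pair had the largest drop in CPM. Hspa1a, which encodes the classical stress Hsp70, stood at 2448 CPM at 2 h and 641 CPM at 9 h, 3.82-fold lower (3.73 to 3.91). Hspa1b, whose protein is nearly the same, stood at 4874 CPM at 2 h and 1268 CPM at 9 h, 3.84-fold lower (3.78 to 3.91). The 2 genes thus fell by the same fold within their intervals. The unnamed cluster, left out here, had Hspa1a at 1587 CPM and Hspa1b at 2942 CPM at 9 h. Both levels are above those of FAP-like cells at 9 h, so counting that cluster as FAP-like makes both folds smaller. No window of 98 bases, the length of the read, was shared between them or with another annotated gene over the last 500 bases of their transcripts. Hsph1, the inducible Hsp110 that exchanges the nucleotide of Hsp70, had a smaller difference, 478 CPM at 2 h and 209 CPM at 9 h, 2.29-fold lower (2.19 to 2.39).

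All 4 inducible Hsp40 partners fell, Dnajb1 and Dnaja1 by more than the Hsp70 pair, with intervals that did not overlap. Dnajb1, the main stress-induced partner of Hsp70, stood at 695 CPM at 2 h and 85.6 CPM at 9 h, 8.12-fold lower (7.66 to 8.61), the largest fold of any member. Dnaja1, a farnesylated Hsp40, stood at 1246 CPM at 2 h and 263 CPM at 9 h, 4.73-fold lower (4.57 to 4.90). Dnaja4 had low levels, 73.0 CPM at 2 h and 16.6 CPM at 9 h, 4.39-fold lower (3.82 to 5.05). Dnajb4 fell from 272 to 82.5 CPM, 3.30-fold lower (3.09 to 3.52). Of the constitutive Hsp40 genes, Dnaja2, Dnajb6 and Dnajc7 had ratios of 1.69, 1.62 and 1.69 and Dnajb2 a ratio of 0.515; none was called.

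The small Hsp genes did not move as a group. Hspb1 (Hsp25 in the mouse) binds actin and unfolding proteins; it stood at 1876 CPM at 2 h and 699 CPM at 9 h, 2.68-fold lower (2.62 to 2.74). A pseudogene, Hsp25-ps1, shares 5.21% of the 98-base windows at its transcript end, so a small part of its counts is uncertain. Hspb8, which works with Bag3 in the autophagy of misfolded protein, fell from 144 to 56.96 CPM, 2.53-fold lower (2.34 to 2.74). Cryab (alpha-B crystallin), the small Hsp that stabilises desmin and other filaments, stood at 507 CPM at 2 h and 928 CPM at 9 h, 1.83-fold higher (1.78 to 1.88), and did not pass 2-fold. It was the only inducible gene with a higher level at 9 h in FAP-like cells.

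Another 3 heat-inducible genes were read beside the list. Bag3, which links Hsp70 to autophagy, fell from 461 to 109 CPM, 4.24-fold lower (4.02 to 4.48). Hsp90aa1, the stress-inducible form of Hsp90, stood at 2668 CPM at 2 h and 1331 CPM at 9 h; its log2 ratio of -0.998 lay just inside 2-fold, and 8 of 11 alternative settings put it past 2-fold. Chordc1 went the other way, 31.3 CPM at 2 h and 56.4 CPM at 9 h, 1.81-fold higher (1.61 to 2.02), and was not called. Its promoter window holds the run of 5 GAA units.

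The constitutive genes had a median log2 ratio of 0.44 over 17 measured of 18. Hspa8, the constitutive Hsp70 (Hsc70), stood at 3153 CPM at 2 h and 1519.8 CPM at 9 h, 2.07-fold lower (2.04 to 2.11), and fell, but 5 of 11 alternatives put it just inside 2-fold. Pseudogenes share 79.4% of the 98-base windows at the end of its transcript, so its counts are uncertain. Hspa4 rose, 80.4 CPM at 2 h and 250.3 CPM at 9 h, 3.11-fold higher (2.92 to 3.32). Its close relative Hspa4l fell, 45.2 CPM at 2 h and 15.02 CPM at 9 h, 3.01-fold lower (2.59 to 3.51). Both encode Hsp110-type partners of Hsp70, as does Hsph1, so the 3 genes of this kind did not share a direction. Hsp90ab1, the constitutive Hsp90, stood at 1775 CPM at 2 h and 1915 CPM at 9 h, a ratio of 1.08.

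The Hsp90 cochaperones differed by less than 2-fold. Ptges3 (p23), which closes the Hsp90 cycle, had the highest ratio, 1.94, and Fkbp4 the lowest, 0.885. Stip1 (Hop), Ahsa1, St13 and Cdc37 had ratios of 1.68, 1.43, 0.926 and 1.41. An annotated pseudogene shares 32.3% of the windows at the end of Ahsa1, so its counts are uncertain. Bag1, a nucleotide exchange factor, had a ratio of 1.60. The transcription factor genes were low and were not called: Hsf1 stood at 26.7 CPM at 2 h and 39.6 CPM at 9 h, and Hsf2 at 16.5 CPM at 2 h and 19.96 CPM at 9 h. HSF1 is switched on after translation, and its activity was not measured.

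The mitochondrial chaperones and the cytosolic chaperonin were higher at 9 h. Hspa9 (mortalin), the Hsp70 of the mitochondrial matrix, rose from 120.1 to 468 CPM, 3.90-fold higher (3.71 to 4.10). Hspd1 (Hsp60) stood at 391 CPM at 2 h and 716 CPM at 9 h, 1.83-fold higher (1.77 to 1.89), and its lid Hspe1 (Hsp10) at 461 CPM at 2 h and 611 CPM at 9 h, 1.33-fold higher (1.29 to 1.37); neither was called. Another annotated gene shares 34.7% of the windows at the end of Hspe1, so its counts are uncertain. The chaperonin genes all lay between 86 and 114 CPM at 2 h and between 263 and 376 CPM at 9 h. Cct7 had the highest ratio, 93.8 CPM at 2 h and 346 CPM at 9 h, 3.69-fold higher (3.48 to 3.90). Cct4 had the lowest, 99.5 CPM at 2 h and 263 CPM at 9 h, 2.65-fold higher (2.50 to 2.80).

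Other chaperone genes, a list of 48 genes outside the members, gave a median log2 ratio of 0.31 over 45 measured genes, with 8 called higher and 1 lower. The one that fell was Serpinh1 (Hsp47), the collagen chaperone of the endoplasmic reticulum, which is also induced through HSF1. It stood at 1514 CPM at 2 h and 324 CPM at 9 h, 4.67-fold lower (4.53 to 4.82). Among those that rose were Dnajc2, which sits on the ribosome, 27.7 CPM at 2 h and 133 CPM at 9 h, 4.81-fold higher (4.34 to 5.34), the cyclophilin Ppid, 3.41-fold higher (3.15 to 3.69), and the prefoldin subunits Pfdn2, 3.05-fold higher (2.88 to 3.22), and Pfdn4, 3.44-fold higher (3.11 to 3.82). Prefoldin hands actin and tubulin to the chaperonin. Among the lowest after Serpinh1 were Fkbp5 at a ratio of 0.505 and Fkbp8 at 0.508, neither of which was called. Of 16 measured genes of a list of endoplasmic reticulum chaperones and stress genes, 5 were called lower and none higher, with a median of -0.84.

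Other measures also differed between the times in FAP-like cells. Immediate early genes, which cells switch on within minutes of many stimuli, fell in 12 of 15 cases and rose in 1 (Ier3), and their sum went from 17382 to 4919 CPM. The median mitochondrial share was 3.91% at 2 h and 2.75% at 9 h. Summed myofibre markers went from 25.1 to 5.07 CPM (8 of 8 detected at both times) and summed neutrophil markers from 1615 to 2634 CPM (12 of 12). The part of these in the differences above was not tested.

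**Figure D2:**
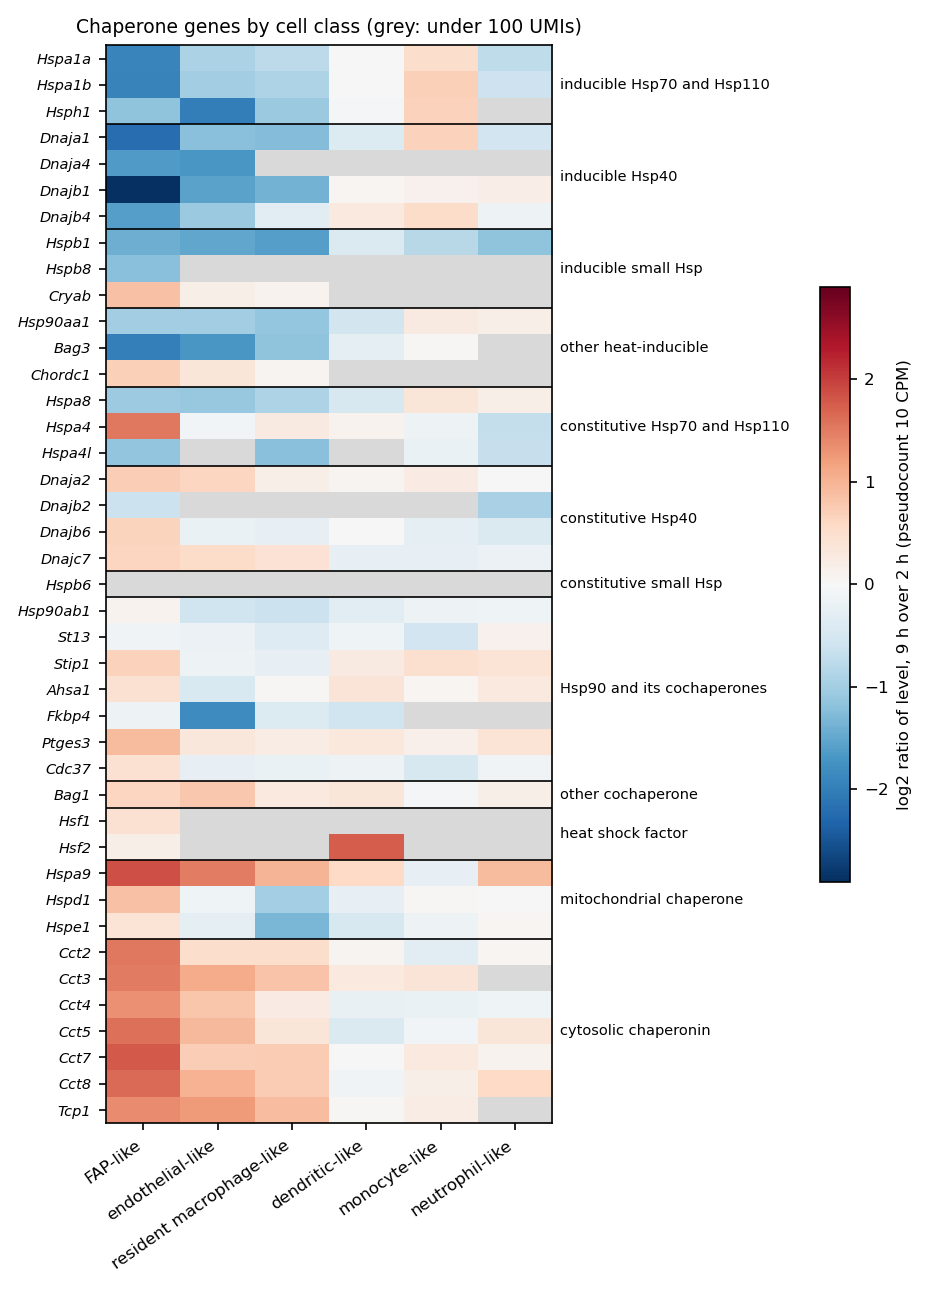
Log2 ratio of the level at 9 h over 2 h (colour, pseudocount 10 CPM) for each of the 41 genes (rows, grouped by role) in the 6 compared cell classes (columns); grey cells had fewer than 100 UMIs over both libraries. The inducible genes are blue (lower at 9 h) in FAP-like, endothelial-like and resident macrophage-like cells except for Cryab, and the chaperonin genes are red in the same 3 classes.

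Within the 2 h library, the FAP-like clusters differed among themselves. Cluster 4, led by Col15a1, had 15000 CPM of the inducible genes (14929.7 to 15071), and the Pi16 cluster 0 had 6649.7 CPM (6576 to 6725). The lower level of the Pi16 cluster held for Hspa1b (2350.1 against 5884 CPM), Dnajb1 (295 against 854 CPM) and Hspb1 (1018 against 2221 CPM). Cryab went the other way, at 575 CPM in the Pi16 cluster and 480.1 CPM in cluster 4. The chaperonin genes stood at 787 and 675 CPM. Immediate early genes were also lower in the Pi16 cluster, 12266 against 19434 CPM, and their part in the difference was not tested. These are cells of 1 library and are not replicates.

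At 9 h, both main FAP-like clusters were below either 2 h cluster in the inducible genes, at 4171 CPM in cluster 3 and 4229 CPM in cluster 15. Their Hspb1 levels differed, 588 CPM in cluster 3 and 1177 CPM in cluster 15, and Cryab was ordered the other way, 996 and 453 CPM. The unnamed cluster, led by Saa1, had 6217 CPM of the inducible genes and 1751 CPM of the chaperonin genes, with Hspa1b at 2942 CPM and Cryab at 213 CPM. The 32 cells of cluster 4 that came from 9 h had 9189.8 CPM (8670.5 to 9732). The chaperonin genes had 2246 CPM in cluster 3 and 1865 CPM in cluster 15, above both 2 h clusters.

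Single FAP-like cells varied widely in the inducible genes. At 2 h the median cell gave 0.715% of its UMIs to them, the 10th percentile 0.152% and the 90th 3.19%, and the 10% of cells highest in them held 42.8% of the inducible UMIs. At 9 h the median was 0.300% and the 90th percentile 0.966%. The chaperonin share was more even, with a median of 0.0641% at 2 h and 0.211% at 9 h. After thinning each cell to 1000 UMIs, 80.8% of FAP-like cells at 2 h (79.0 to 82.5) and 50.4% at 9 h (48.0 to 52.8) had a UMI of Hspa1a or Hspa1b; unthinned shares were 93.1% and 73.8%. Thinning left out 22 and 45 cells. Free RNA in droplets can add such UMIs; the lowest share of any compared class was that of neutrophil-like cells, 12.5% and 6.99%, whose median depths were 2011 and 1659 UMIs against 7955 and 8362 in FAP-like cells.

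Several inducible genes were detected more often in FAP-like cells that had a UMI of Hspa1a or Hspa1b. The FAP-like clusters, which differed in inducible levels at 2 h, were pooled here, and their part in these shares was not tested. At 2 h, in thinned cells, Dnajb1 was detected in 27.7% (25.5 to 29.96) of the 1617 cells with a UMI of Hspa1a or Hspa1b and in 10.6% (7.75 to 14.2) of the 385 cells without. Hsph1 was detected in 30.7% and 9.35%, and Hspb1 in 50.6% and 26.8%. The shares for Cct8, a chaperonin gene, were 9.71% and 9.87%, with overlapping intervals. At 9 h the differences were smaller, at 10.4% and 6.24% for Dnajb1, 20.8% and 13.6% for Hsph1 and 36.7% and 25.1% for Hspb1. Cryab was detected in 21.6% and 16.6% at 2 h, with overlapping intervals, and in 24.4% (21.6 to 27.4) and 31.3% (28.2 to 34.5) at 9 h, where it was less frequent in cells with Hspa1a or Hspa1b.

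**Figure D3:**
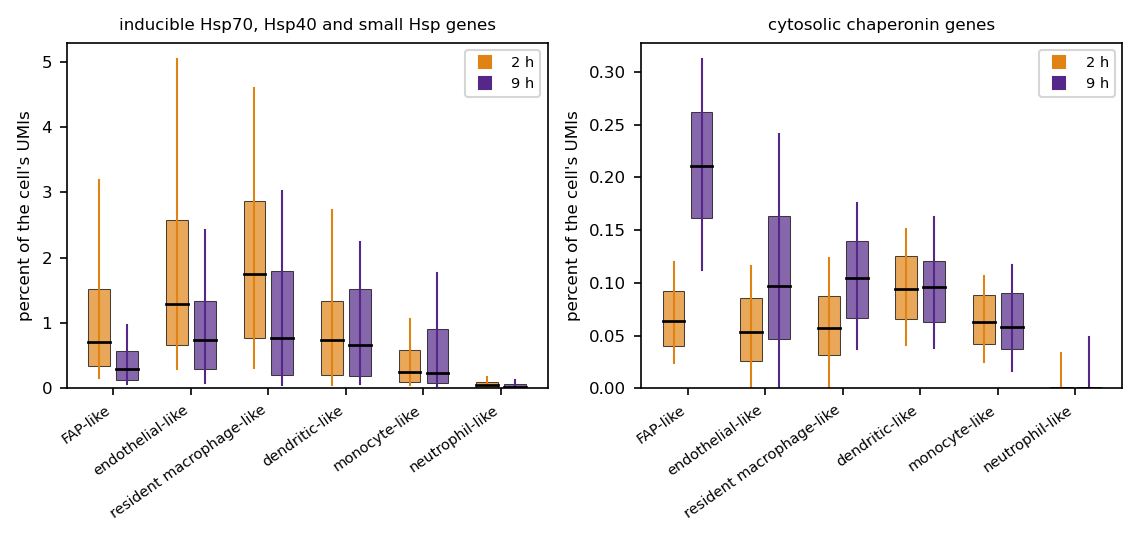
Percent of each cell's UMIs that came from the inducible genes (left) or the chaperonin genes (right) in 6 cell classes at 2 h and 9 h (1 library each); the bar in the box is the median cell, the box spans the quartiles and the line runs from the 10th to the 90th percentile. The inducible share of FAP-like cells has a median of 0.715% at 2 h and 0.300% at 9 h with a long upper range, and their chaperonin share shifts as a whole from 0.0641% to 0.211%.

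Endothelial-like cells (262 at 2 h and 501 at 9 h, 1 cluster, all 12 own markers detected) also had lower inducible and higher chaperonin levels at 9 h. Of 9 measured inducible genes, 7 fell and none rose, with a median log2 ratio of -1.22, where 8.08% of the 3826 measured genes were called lower and 7.74% higher and the median of all was 0.06. Their inducible sum was the highest of the 6 compared classes at 2 h, 21215 CPM, and 9551.7 CPM at 9 h, 2.22-fold lower. The chaperonin median was 0.95, and 3 of 7 genes rose, Cct3, Cct8 and Tcp1. With TMM scaling 1 gene did. Without TMM scaling, 6 passed at 1.5-fold and none at 3-fold. No share over all genes was taken with TMM scaling or at 1.5-fold or 3-fold.

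Hsph1 had the largest fold among the inducible genes of endothelial-like cells, 708 CPM at 2 h and 169 CPM at 9 h, 4.20-fold lower (3.63 to 4.87). Dnaja4 stood at 155 CPM at 2 h and 41.2 CPM at 9 h, 3.77-fold lower (2.78 to 5.15), and Dnajb1 at 445 CPM at 2 h and 145 CPM at 9 h, 3.06-fold lower (2.59 to 3.62). These 3 fell more than the Hsp70 pair. Hspb1 went from 5635 to 1988 CPM, 2.84-fold lower (2.71 to 2.97). Dnaja1 stood at 1084 CPM at 2 h and 461 CPM at 9 h, 2.35-fold lower (2.13 to 2.59), and Dnajb4 at 101 CPM at 2 h and 43.2 CPM at 9 h, 2.35-fold lower (1.69 to 3.27); 2 of 10 alternatives put Dnajb4 inside 2-fold. The Hsp70 pair lay close to 2-fold: Hspa1b stood at 8050.4 CPM at 2 h and 4000.1 CPM at 9 h, 2.01-fold lower (1.95 to 2.08), and was called, although 5 of 10 alternatives put it inside 2-fold. Hspa1a stood at 4986 CPM at 2 h and 2646 CPM at 9 h, 1.88-fold lower (1.81 to 1.97), and was not called. Cryab stood at 47.5 CPM at 2 h and 54.4 CPM at 9 h, but 1 cell held 82.2% of its UMIs at 2 h. Hspb8 was not measured.

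Of the other members in endothelial-like cells, Bag3 fell from 378 to 111 CPM, 3.41-fold lower (2.83 to 4.12), Hspa8 from 3511 to 1636 CPM, 2.15-fold lower (2.04 to 2.26), and Hsp90aa1 from 2436 to 1199 CPM, 2.03-fold lower (1.91 to 2.16). Of 10 alternatives, 3 put Hsp90aa1 inside 2-fold and 1 did so for Hspa8. Fkbp4, a steroid receptor cochaperone of Hsp90, fell from 105 to 22.6 CPM, 4.67-fold lower (3.14 to 7.11); in FAP-like cells its ratio was 0.885. Hspa9 rose, 84.4 CPM at 2 h and 254 CPM at 9 h, 3.01-fold higher (2.36 to 3.89), as it did in FAP-like cells. Hspd1 and Hspe1 were not called, at ratios of 0.921 and 0.833, nor was Hsp90ab1 at 0.665. Among the chaperonin genes, Tcp1 had the highest ratio, 59.1 CPM at 2 h and 151 CPM at 9 h, 2.56-fold higher (1.91 to 3.50), and Cct2 the lowest, 1.47. In all, 35 members were measured, of which 11 fell and 4 rose; Hsf1 and Hsf2 were not measured. Immediate early genes went from 21769 to 12095 CPM, 7 of 15 falling, the median mitochondrial share from 6.998% to 7.77%, and summed neutrophil markers from 6594 to 10016 CPM; their part was not tested.

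Resident macrophage-like cells (297 and 236 cells, 1 cluster, all 12 own markers detected) had the second highest inducible sum of the 6 classes at 2 h, 20165 CPM, and 10592 CPM at 9 h, 1.90-fold lower. Of 8 measured inducible genes 4 fell, with a median log2 ratio of -0.99, beside 7.82% of 4181 genes called lower, 4.66% higher and a median of 0.02. The chaperonin genes had ratios above 1 in 7 of 7 cases with a median log2 ratio of 0.73, but none was called.

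Hspb1 fell most in these macrophages, 1363 CPM at 2 h and 444 CPM at 9 h, 3.07-fold lower (2.82 to 3.35). Dnajb1 stood at 483 CPM at 2 h and 181 CPM at 9 h, 2.66-fold lower (2.32 to 3.06), Dnaja1 at 1558 CPM at 2 h and 645 CPM at 9 h, 2.41-fold lower (2.25 to 2.60), and Hsph1 at 756 CPM at 2 h and 351 CPM at 9 h, 2.15-fold lower (1.95 to 2.38). The Hsp70 pair was high at both times and was not called: Hspa1a stood at 5873 CPM at 2 h and 3443 CPM at 9 h, 1.71-fold lower (1.65 to 1.76), and Hspa1b at 9939.9 CPM at 2 h and 5375 CPM at 9 h, 1.85-fold lower (1.80 to 1.90). Dnajb4 (0.774) and Cryab (1.08) were not called either, and Dnaja4 and Hspb8 were not measured. Hsp90aa1 fell from 4356 to 1987 CPM, 2.19-fold lower (2.10 to 2.29), Bag3 from 341 to 147 CPM, 2.32-fold lower (1.99 to 2.72), and Hspa4l from 73.8 to 26.4 CPM, 2.80-fold lower (1.95 to 4.09). Hspa4l and Hsph1 were each put inside 2-fold by 1 of 9 alternatives. Hspa8 had a ratio of 0.537 and Hsp90ab1 of 0.643, neither called.

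The mitochondrial chaperonin went with the inducible genes in these cells, not with the cytosolic chaperonin. Hspe1 fell, 728 CPM at 2 h and 285 CPM at 9 h, 2.55-fold lower (2.29 to 2.85). Hspd1 stood at 575 CPM at 2 h and 284 CPM at 9 h, 2.03-fold lower (1.81 to 2.27); its log2 ratio of -0.995 was just inside 2-fold, and 5 of 9 alternatives put it past. Hspa9 had a ratio of 2.09 and was not called, but 4 of 9 alternatives put it past 2-fold. Tcp1 had the highest chaperonin ratio, 1.96, and Cct4 the lowest, 1.20. Of the 35 members measured, 8 fell and none rose; Hsf1 and Hsf2 were not measured. Immediate early genes went from 19906 to 15502 CPM with 1 of 15 falling and 1 rising, the median mitochondrial share from 5.88% to 4.47%, and summed FAP markers in these cells from 4409 to 1261 CPM; their part was not tested.

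Monocyte-like cells (174 and 360 cells, 1 cluster, all 8 own markers detected) had no member past 2-fold in either direction among 32 measured, where 4.46% of 3922 genes were called higher and 6.27% lower. Of 7 measured inducible genes, 6 had log2 ratios above 0, with a median of 0.52 beside -0.08 over all genes. The inducible sum was 4065 CPM at 2 h and 6136 CPM at 9 h, a ratio of 1.51 (1.46 to 1.56). The chaperonin sum was 653 and 662 CPM.

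Hspa1a stood at 1509.6 CPM at 2 h and 2150.4 CPM at 9 h in monocyte-like cells, a ratio of 1.42 (1.35 to 1.502), and Hspa1b at 1902 CPM at 2 h and 3085 CPM at 9 h, a ratio of 1.62 (1.55 to 1.70). Dnaja1 had a ratio of 1.61, Hsph1 of 1.65, Dnajb4 of 1.51 and Dnajb1 of 1.10. Hspb1 went the other way, 82.7 CPM at 2 h and 43.2 CPM at 9 h, but 1 cell held 41.1% of its UMIs at 2 h. Dnaja4, Hspb8 and Cryab were not measured. Hspa8 had a ratio of 1.27, Hsp90aa1 of 1.21, Hsp90ab1 of 0.897, Bag3 of 1.02, Hspd1 of 1.02 and Hspe1 of 0.892. Among the chaperonin genes Cct3 was highest at 1.37 and Cct2 lowest at 0.776; Hsf1 and Hsf2 were not measured.

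The inducible sum of monocyte-like cells was held by the upper part of the cells. The median cell gave 0.244% of its UMIs at 2 h and 0.237% at 9 h, while the upper quartile was 0.590% and 0.904%. The share of cells with a UMI of Hspa1a or Hspa1b after thinning was 68.8% (61.3 to 75.6) and 64.3% (59.1 to 69.3), which does not follow the CPM, so no order is read from it. Median depth was 7945 UMIs at 2 h and 5808 UMIs at 9 h, and summed FAP markers in these cells went from 1690.5 to 206 CPM, while summed neutrophil markers went from 4355 to 9625 CPM. Summed resident macrophage markers went from 906 to 1937 CPM, and Lyve1 and Cd163 among them had no UMI at 2 h. Immediate early genes went from 18856 to 16980 CPM. The part of these was not tested.

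Dendritic-like cells (156 and 116 cells, 1 cluster, all 11 own markers detected) had nearly the same inducible level at both times, 9892 and 9625 CPM, a ratio of 0.973 (0.948 to 0.999). Hspa1a stood at 3058 CPM at 2 h and 3044 CPM at 9 h and Hspa1b at 4932 CPM at 2 h and 4916 CPM at 9 h. None of 7 measured inducible genes was called, nor any chaperonin gene (sum 1041 and 991 CPM), beside 5.24% of 3112 genes called higher and 5.56% lower. The median log2 ratio was -0.01 for the inducible and 0.01 for the chaperonin genes. Hspb1 stood at 407 CPM at 2 h and 299 CPM at 9 h, with 60.3% of its UMIs at 9 h in 1 cell. Of 33 members measured none fell and 1 rose: Hsf2, a heat shock factor that acts in development and can pair with HSF1, stood at 22.3 CPM at 2 h and 99.1 CPM at 9 h, 4.45-fold higher (2.97 to 6.83), and its richest cell held 7 of 95 UMIs at 9 h. At resolution 2 the cells named dendritic-like were a larger set, 229 cells at 2 h and 188 at 9 h. They lay in a cluster of 227 and 127 cells and one, led by Ccl22 and Ccr7, of 2 and 61 cells. The make-up of that larger set thus differed between the times. The cluster of 156 and 116 cells described here was itself led by Ccl17, Ccl22 and Ccr7. Whether its own make-up differed between the times was not tested, nor was the part of this in its levels. The log2 ratio of Hsf2 was 1.76 in the 156 and 116 cells described here, and 1.32 in the larger set of resolution 2. Summed FAP markers in these cells went from 582 to 2092 CPM and summed neutrophil markers from 1287 to 4247 CPM; their part was not tested.

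Neutrophil-like cells (1633 and 4331 cells, all 12 own markers detected) had low levels of most members. Those of 2 h lay mostly in cluster 10 (1494 cells) and those of 9 h in clusters 7, 8 and 9 (1566, 1553 and 844 cells). The inducible sum was 788 CPM at 2 h and 547 CPM at 9 h, 1.44-fold lower. Of 6 measured inducible genes 1 fell and none rose, with a median log2 ratio of -0.58, beside 5.77% of 4955 genes called lower, 4.78% higher and a median of -0.07. The chaperonin sum was 61.3 and 91.5 CPM, with none of 5 measured genes called. Clusters with cells of both times differed in this. In cluster 10 (1494 and 291 cells) the inducible sum was 752 CPM (723 to 783) at 2 h and 729 CPM (651 to 814) at 9 h, with overlapping intervals. In cluster 7 (87 and 1566 cells) it was 2017 CPM (1772 to 2286) and 524 CPM (495 to 554). Summed FAP markers in neutrophil-like cells went from 840.1 to 335 CPM (15 of 15 detected at both times), and FAP-like cells held 72.6% of all Hspb1 UMIs at 2 h; their part in the values of neutrophil-like cells was not tested.

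The gene that fell in neutrophil-like cells was Hspb1, 63.3 CPM at 2 h and 22.5 CPM at 9 h, 2.81-fold lower (2.30 to 3.43). Hspa1a stood at 97.5 CPM at 2 h and 55.0 CPM at 9 h, 1.77-fold lower (1.54 to 2.04), Hspa1b at 138 CPM at 2 h and 87.4 CPM at 9 h, 1.58-fold lower (1.40 to 1.77), and Dnaja1 at 354 CPM at 2 h and 238 CPM at 9 h, 1.48-fold lower (1.38 to 1.59); none was called. Dnajb1 had a ratio of 1.15 and Dnajb4 of 0.876; Hsph1, Dnaja4, Hspb8 and Cryab were not measured. Hspa4l, an Hsp110 gene, stood at 362 CPM at 2 h and 223 CPM at 9 h, 1.63-fold lower (1.51 to 1.75), above its level in FAP-like cells at both times. Hspa8 stood at 436 CPM at 2 h and 495 CPM at 9 h, Hsp90aa1 at 252 CPM at 2 h and 284 CPM at 9 h and Hsp90ab1 at 111 CPM at 2 h and 102 CPM at 9 h, none called. Hspd1 and Hspe1 had ratios of 1.01 and 1.06 at levels of 10.6 to 12.1 CPM. Cct8 had the highest chaperonin ratio, 1.97, and Cct4 the lowest, 0.873; Bag3, Hsf1 and Hsf2 were not measured. Of 29 members measured, Hspb1 alone was called.

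**Figure D4:**
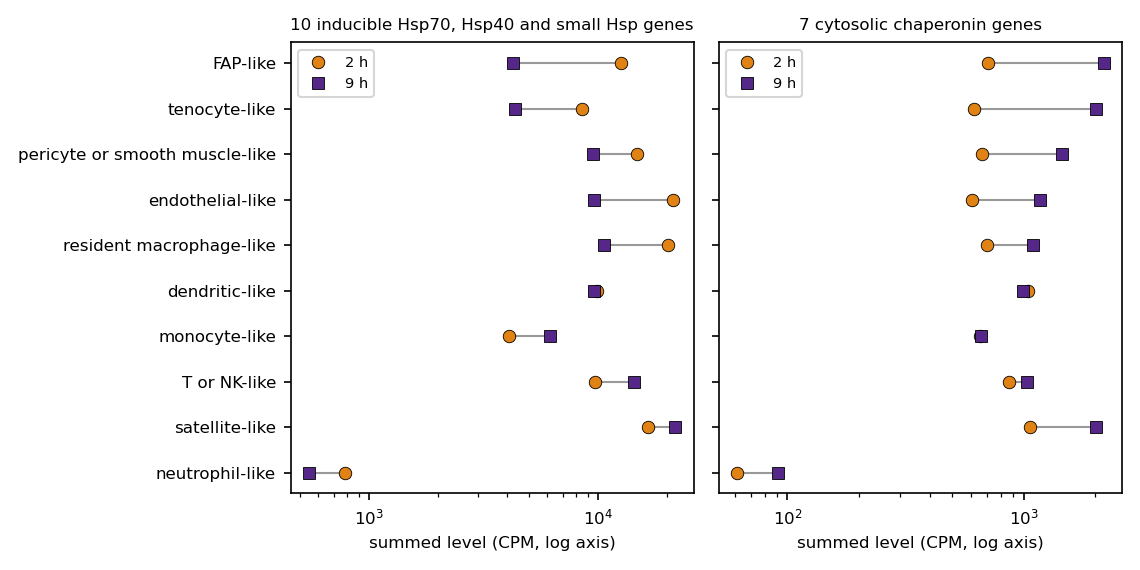
Summed level (x axis, CPM, log scale) of the 10 inducible genes (left) and the 7 chaperonin genes (right) in 10 cell classes (rows) at 2 h (circles) and 9 h (squares), 1 library per time and no error bars. The inducible sum is lower at 9 h in FAP-like (12613 to 4250 CPM) and endothelial-like cells (21215 to 9551.7 CPM), nearly equal in dendritic-like cells and higher in monocyte-like cells (4065 to 6136 CPM), and the chaperonin sum is higher at 9 h in FAP-like cells (707 to 2185 CPM).

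Smaller classes, with 32 to 103 cells per library, give levels only. In tenocyte-like cells (79 and 62 cells) the inducible sum was 8511 CPM (8303 to 8724) at 2 h and 4343 CPM (4158 to 4535) at 9 h, and the chaperonin sum 617 and 2021 CPM. Pericyte- or smooth muscle-like cells (32 and 36) had 14715 and 9509 CPM of the inducible genes and 669 and 1454 CPM of the chaperonin genes. Satellite-like cells, the muscle stem cells (81 and 68), had 16469 CPM (16048 to 16899) and 21719 CPM (21153 to 22295) of the inducible genes. Their chaperonin genes had 1064 and 2023 CPM. T- or NK-like cells (103 and 37) had 9660.1 and 14316 CPM of the inducible genes; 1 cell held 26.0% of the Hspa1a UMIs of this class at 9 h.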

How the data were processed

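Counts of UMIs per gene and barcode (10x 3' v3.1) were deposited by the authors as 1 matrix per library. The submitters' processing notes name Cell Ranger 5.0.0 and the mouse build mm10; no annotation release is named in the sources used here. Groups are the times of the labels, 1 library each. The 2 h matrix held 5729 barcodes and 28635763 UMIs, and the 9 h matrix 8790 barcodes and 36042307 UMIs. Cells needed at least 200 genes, 500 UMIs and at most 20% mitochondrial UMIs, which removed 513 and 316 barcodes at 2 h and 264 and 379 at 9 h. The doublet caller marked 6 cells at 2 h (0.122%) and none at 9 h, too few to have worked, so no cell was removed by it; leaving out the 225 and 573 cells of highest score was an alternative.

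Cells of both libraries were clustered together (Scanpy 1.11.5, Python 3.11.15; 2000 variable genes without 104 listed chaperone and immediate early genes, 30 principal components, 15 neighbours, Leiden resolution 1). A cluster was named when at least 3 markers of a class were detected in at least 10% of its cells and its score was 1.5 times that of the next class. It stayed unnamed when markers of a different class outnumbered its own among its 10 leading genes, as for the Saa1 cluster, or when it was shallow with no own marker among them; doublets and free RNA can add markers of other classes. UMIs were summed per class and library, scaled to CPM and compared where a class had at least 100 cells at each time. Intervals are exact Poisson for levels, conditional binomial for ratios and Clopper-Pearson for shares. Sequencing duplicates are removed by UMIs, so intervals cover counting error. No test was run. The procedure was tested on simulated data. TMM factors came from edgeR 4.0.16 in R 4.3.3. Promoter windows were from RefSeq on GRCm38.p6, and gene positions from GENCODE M21 on mm10 matched by identifier for 41 of 41 genes.

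The 41 genes and all other lists were chosen with earlier results of these data known. Every member is accounted for. Values were written for members of at least 100 CPM in a library and past 2-fold, for all inducible Hsp70, Hsp40 and small Hsp genes, for Hspa8, Hsp90aa1, Hsp90ab1, Bag3, Hspd1, Hspe1, Hsf1 and Hsf2, and for the highest and lowest chaperonin ratio. Of the other chaperone genes the 4 highest and 4 lowest of at least 50 CPM were to be named; 1 of them is not reported here. Alternatives changed the scaling, weighting of cells, filters, clustering, pseudocount, fold and list.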

Additional observations from a re-analysis of the deposited data

Results flagged for a closer look

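In 11 cases a measured member went one way in FAP-like cells and the opposite way in one of the other 5 compared classes, each by more than 0.4 on the log2 scale and with both intervals away from 1. The rule was applied to the members only, so no share over all genes stands beside this count. The intervals cover counting error only, so the count is not read as a result about the members. With 1 library per time the difference between the classes was not tested. In monocyte-like cells the ratio of 9 h over 2 h was 1.42 (1.35 to 1.502) for Hspa1a, against 0.262 in FAP-like cells. It was 1.62 (1.55 to 1.70) against 0.260 for Hspa1b, the other inducible Hsp70 gene. It was 1.65 (1.32 to 2.06) against 0.437 for Hsph1, 1.61 (1.44 to 1.81) against 0.211 for Dnaja1 and 1.51 (1.16 to 1.98) against 0.303 for Dnajb4. The median monocyte-like cell gave nearly the same share of its UMIs to the inducible genes at both times, 0.244% at 2 h and 0.237% at 9 h. Cdc37, which brings kinases to Hsp90, was ordered the other way, at 0.697 (0.556 to 0.874) in monocyte-like and 1.41 in FAP-like cells. Hspd1, the mitochondrial chaperonin, had a ratio of 0.493 (0.440 to 0.552) in resident macrophage-like cells and 1.83 in FAP-like cells. In neutrophil-like cells the ratio was 0.574 (0.491 to 0.671) for the Hsp110 gene Hspa4, against 3.11 in FAP-like cells, and 0.737 (0.673 to 0.806) for the Hsp40 gene Dnajb6, against 1.62. The chaperonin gene Cct5 had a ratio of 0.734 (0.588 to 0.914) in dendritic-like and 3.27 in FAP-like cells. Ahsa1, which speeds the ATPase of Hsp90, had a ratio of 0.703 (0.501 to 0.987) in endothelial-like and 1.43 in FAP-like cells.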

How the results depend on the processing

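No paired analysis was possible because each time had 1 library. No result reversed. The median log2 ratio of FAP-like cells ranged from -1.82 to -1.50 for the inducible genes and from 1.46 to 1.63 for the chaperonin genes. In dendritic-like cells it crossed 0 (-0.25 to 0.05 and -0.14 to 0.12). TMM scaling moved the median of all genes from -0.07 to 0.15 in neutrophil-like, from -0.08 to 0.14 in monocyte-like and from -0.00 to -0.14 in dendritic-like cells. The inducible median of resident macrophage-like cells, -0.99, passed 2-fold with TMM (-1.08), resolution 2 (-1.05), without the cells of highest doublet score (-1.03) and with the wider list (-1.08). The chaperonin median of endothelial-like cells, 0.95, passed it without mitochondrial, ribosomal and haemoglobin genes (1.01), at resolution 0.5 (1.07) and with a pseudocount of 1 CPM (1.04). With TMM, 1 chaperonin gene was called higher in endothelial-like cells.

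At 1.5-fold, 1 inducible gene was higher in FAP-like cells; 3 were lower in neutrophil-like cells; 3 were higher and 1 lower in monocyte-like cells; and 4 chaperonin genes in resident macrophage-like and 6 in endothelial-like cells were higher. At 3-fold, 3 chaperonin genes were higher in FAP-like cells and 0 in endothelial-like cells, and 0, 1 and 2 inducible genes were lower in neutrophil-like, resident macrophage-like and endothelial-like cells. Weighting every cell equally gave 2 inducible genes lower in neutrophil-like cells, 1 in dendritic-like cells and 2 chaperonin genes higher in resident macrophage-like cells. Resolution 2 gave 1 inducible gene lower in monocyte-like and 1 chaperonin gene higher in resident macrophage-like cells. A mitochondrial limit of 10% gave 1 inducible gene lower in monocyte-like and 1 in dendritic-like cells, and no filter on low counts gave 1 higher in dendritic-like cells. The counts under alternative settings have no share over all genes beside them, because that share was taken at 2-fold in the main setting only. In FAP-like cells Hsph1, Hspb1 and Hspb8, called lower at 2-fold, did not pass 3-fold. The cause of the differences between settings was not tested. At resolution 0.5 no cluster was named resident macrophage-like or dendritic-like, so these have no value there.

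The share of FAP-like cells with a UMI of Hspa1a or Hspa1b was 87.0% and 60.0% when thinned to 2000 UMIs and 93.1% and 73.8% unthinned, and that of monocyte-like cells 81.5% and 70.8%, and 90.2% and 79.7%. Of the values of single members under alternatives, 424 of 440 in FAP-like and 320 of 343 in endothelial-like cells stayed on their side of 2-fold. Hsf1 reached 100 UMIs in FAP-like cells alone of the 6 classes. With 1 library per time, animal, library and time cannot be told apart.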

Other observations

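Chaperones and stress genes of the endoplasmic reticulum, a list of 17 genes, had levels that went different ways in different classes. This list was not left out when the clusters were formed. In neutrophil-like cells 6 of 13 measured genes were called higher at 9 h and none lower (4.78% of all measured genes were called higher), with a sum of 1429.6 CPM at 2 h and 2989 CPM at 9 h. In monocyte-like cells 7 of 16 were called higher and none lower (4.46% of all were higher), with sums of 3598 and 6664 CPM. In FAP-like cells none of 16 was called higher and 5 were lower (10.8% of all were lower), with sums of 6407 and 3841 CPM. Resident macrophage-like cells had 1 of 16 called higher (4.66% of all were higher), with sums of 5892 and 6402 CPM. None was called in dendritic-like cells (16 measured) or endothelial-like cells (12 measured), with sums of 4643 and 3993 CPM and of 3324 and 2824 CPM. Of all measured genes, 5.24% were called higher and 5.56% lower in dendritic-like cells. In endothelial-like cells these shares were 7.74% and 8.08%. The difference between the classes was not tested.

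The share of all UMIs of a gene that came from FAP-like cells depended on the gene and on how many UMIs each class held. FAP-like cells held 16284800 of 27598413 kept UMIs at 2 h and 14782217 of 35127600 at 9 h. Neutrophil-like cells held 3506539 and 8341203 UMIs, and the unnamed cluster 4811568 at 9 h. For Cryab the share of FAP-like cells was 87.9% at 2 h and 86.3% at 9 h. For Dnajb1 it was 76.1% and 27.4%, while neutrophil-like cells held 2.12% and 18.7% of its UMIs. The level of Dnajb1 in neutrophil-like cells was 89.8 CPM at 2 h and 103 CPM at 9 h. The unnamed cluster held 15.4% of the Dnajb1 UMIs and 20.5% of the Hspa1a UMIs at 9 h. Some levels of small classes rest on 1 cell: 1 of the 4 B-like cells at 9 h held 146 of 146 Hspa1a UMIs, and 1 T- or NK-like cell held 54 of 55 Cryab UMIs.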
